A study of Homo sapiens with 12 samples.

Results

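The genes described here are the zinc finger genes of human chromosome 19, taken as every gene on that chromosome whose symbol is ZNF, a number and at most 1 further letter, in the authors' differential peak table or in either of their m6A peak lists. This rule gave 199 genes of 19340 genes with a peak or a named differential row. It used no size or direction of change, but a gene had to have a called peak or row to be listed, and all 199 have at least 1 peak. The study mapped N6-methyladenosine (m6A) in control cells and FTO knockdown cells of the gastric carcinoma line HGC27, and its title ties FTO to ferroptosis through HOXC8, MDM2 and p53. Each condition had 3 libraries of RNA fragments pulled down with an m6A antibody (IP) and 3 libraries of the fragments before the pull-down (input), 12 libraries in all. The control libraries carry the genotype label WT and titles with Con, and no control hairpin is named. The treated libraries carry the label FTO-KO and titles with sh, while the protocol speaks of a knockdown, and they are called knockdown here because FTO RNA was still present. The labels do not say whether libraries 1 to 3 came from separate cultures or from different hairpins, so a p-value here covers the spread among the libraries alone, and that spread may be technical.

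Most zinc finger genes of chromosome 19 stand in clusters of tandem copies and encode proteins with a row of C2H2 fingers that bind DNA, often behind a KRAB domain. The KRAB domain recruits TRIM28 (also called KAP1), which brings the histone methyltransferase SETDB1 and heterochromatin proteins, and many of these genes are known for silencing transposable elements. The m6A mark is written mainly in long exons and near stop codons and is removed by FTO. FTO also acts on m6Am, a methylated adenosine beside the cap, which m6A antibodies bind as well, so signal at a transcription start cannot be assigned to one of the marks. An m6A peak value is a ratio of IP to input, and FPKM is the input level of a gene per kilobase of transcript and scaled to the reads of its library.

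FTO itself was listed at 5.48, 5.68 and 5.52 FPKM in the control inputs and at 0.786, 0.83 and 0.765 FPKM in the knockdown inputs. The groups did not overlap, and the log2(FPKM + 1) change of FTO was -1.87 (SE 0.0465). FPKM summed over the 6396 listed genes to between 74289 and 78461 in the control inputs and between 83712 and 86902 in the knockdown inputs. Members took 0.129 to 0.136% of that sum in the controls and 0.11 to 0.116% after knockdown. FPKM was listed only for genes with a differential row, so a marker without a value is not shown to be absent. Of 8 epithelial markers only MUC1 had FPKM values (1.19 to 1.26 in the controls and 1.19 to 1.61 after knockdown), so FPKM could not check the gastric label further. A control peak was listed on 4 of these 8, on 5 of 5 fibroblast, 1 of 4 immune and 1 of 3 endothelial markers. Of 5 fibroblast markers COL1A1 and THY1 had values, with a summed level of 177 to 189 in the controls and 153 to 170 after knockdown. COL1A1 made up most of that sum and was lower (log2 change -0.20, limma adjusted p 0.0108), and THY1 was higher (0.24, 0.0032). No immune or endothelial marker had FPKM values. The part of these markers in the results below was not tested.

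Transcription starts under a peak or a differential row are shown first, by sequence. They were chosen because the differential rows with more m6A after knockdown included nearly all rows in 5' UTRs. RefSeq (GRCh38.p14) gave a transcription start for 170 of the 199 members. Of these, 16 had a control peak over at least 25 of their first 50 transcribed bases and 7 had a knockdown peak there, with 5 in both lists. The shares were 9.41% and 4.12%, against 6.79% and 4.64% of 27305 genes with a RefSeq start. The first 5 sequences below are the starts covered in both lists, the sixth is the start at which a differential row began, and the last 4 are examples of the 11 covered in the control list only, chosen because they hold the letters TTCCGG. Each shows 10 bases before and 20 bases from the RefSeq start, 5' to 3' on the gene's strand, with the first transcribed base as the capital.
ZNF507: cccgcggctcAcgtgatccgtccccagcgc
ZNF580: tccggccggcGccttttcccagggactccg
ZNF444: tggggcatggAgtcccggcgagctttgtgc
ZNF497: ccctcctaccAttccacgcggctcgagccc
ZNF446: tcgctcaggcCtttcctaccctcaacgccg
ZNF749: tgtgggcgggActtctggcggcgccctcat
ZNF461: gtccacagctActtccggtaggagcctcgc
ZNF780A: ccaccgcgccAgtccacttccggtctccgg
ZNF528: cctagagcgcAgtttccggtagacccggaa
ZNF470: ggacacgcccActtccggaaaggacccaaa
The start of ZNF507 (chr19:32345600-32345629, plus strand) was covered by a peak of 9.14-fold enrichment in the control list and 28.3-fold in the knockdown list. The start of ZNF444 (chr19:56141277-56141306, plus strand) had 5.34-fold and 27.1-fold, and that of ZNF446 (chr19:58476342-58476371, plus strand) had 2.01-fold and 10.4-fold. The start of ZNF497 (chr19:58362732-58362761, minus strand) had 3.05-fold and 5.03-fold. The start of ZNF580 (chr19:55640992-55641021, plus strand) had 3.16-fold and 19.4-fold, in peaks that the files annotate to its neighbour ZNF581. All 5 starts had the larger value in the knockdown list, but they were taken because both lists covered them. More member starts were covered in the control list (16) than in the knockdown list (7). Median enrichment over all peaks was also larger in the knockdown list, 7.05-fold against 6.11-fold. The share with a larger knockdown value among the 979 genes covered in both lists was not computed. Each value given for a start belongs to the whole peak, which can reach far past the start. These are the authors' values from lists without replicates, so no test of the difference was possible. The differential row at ZNF749 began at the RefSeq start itself (chr19:57435325-57435504) and was higher after knockdown by 1.13 on the log2 scale. It overlapped no peak of either list.

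The control-only starts, ZNF461 (chr19:36666818-36666847, minus strand), ZNF780A (chr19:40090924-40090953, minus strand), ZNF528 (chr19:52397839-52397868, plus strand) and ZNF470 (chr19:56567458-56567487, plus strand), had 6.62-, 9.16-, 13- and 8.4-fold enrichment. Of the 11 control-only starts, 6 held TTCCGG, the core of the ETS family motif, on either strand of these 30 bases and 5 did not. The same 30 bases held it at 35 of 170 member starts and at 29 of the 152 member starts covered in neither list. Over all genes they held it at 949 of 27305 starts. Searched on both strands, TTCCGG was in 93 of 170 member promoters of 300 bases (250 before to 50 after the start), or 54.7%. It was in 44.9% of 214 promoters of ZNF genes on other chromosomes, in 22% of 1294 promoters of other chromosome 19 genes and in 17.6% of all 27305. Within 50 bases of the start the shares were 44.1% for members, 31.8% for ZNF genes of other chromosomes, 11.4% for other chromosome 19 genes and 9.18% for all genes. The first transcribed base was A at 11 of the 18 member starts covered in either list and at 71 of the 152 others. Over all genes it was A at 50.6% of covered and 43.7% of other starts. GGAC, a form of the sequence in which m6A is commonly found, was in the first 50 bases (transcribed strand) of 14.1% of members and 18.8% of all genes. A match of letters is a description and shows no bound factor and no modified base.

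The m6A peaks of the members lay mostly toward the ends of their transcripts. The control list held 537 peaks on 195 members and the knockdown list 483 peaks on 170, with 166 members (83.4%) in both. That is 2.75 and 2.84 peaks per gene, against 2.16 and 2.04 over all genes with a peak and 2.7 and 2.98 over ZNF genes of other chromosomes. Enrichment had a median of 8.59-fold in the control list and 8.86-fold in the knockdown list, against 6.11-fold and 7.05-fold over all peaks and 7.88-fold and 8.89-fold on ZNF genes of other chromosomes. The most peaks of a member were 8 in the control list (ZNF528 and ZNF814) and 10 in the knockdown list, on ZNF224, whose product is known as a KRAB repressor. ZNF224 had 7 control peaks. Only 4 of these 7, and 5 of its 10 knockdown peaks, had been called on its own model. Overlapping gene models can list a stretch more than once, and 2 of the control peaks of ZNF224 (chr19:44086354-44087251 and chr19:44086422-44087228) cover the same bases. The files assign each peak to a nearby gene, and 21.4% of control and 19.7% of knockdown member peaks had been called on another gene's model, against 22.6% and 21.7% of all peaks.

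In the control list 66.9% of member peaks were annotated to a 3' UTR (exact 95% interval 62.7 to 70.8, counting error only), and in the knockdown list 58.2% (53.6 to 62.6). Over all peaks the shares were 47.6% and 46.5%, and over ZNF genes of other chromosomes they were 53.8% and 46.7%. The intervals of the members lay above those of all peaks in both lists. A 5' UTR held 9.87% of member control peaks and 9.32% of member knockdown peaks, against 12.6% and 13.9% of all peaks. Of the member peaks in a coding or non-coding exon, 70.4% were in the last exon in the control list and 79.6% in the knockdown list, against 48% and 45.4% of all exonic peaks and 58.3% and 64.1% of those on ZNF genes of other chromosomes. C2H2 genes of this kind typically carry all their fingers in the last exon, which also holds the stop codon.

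**Figure D1:**
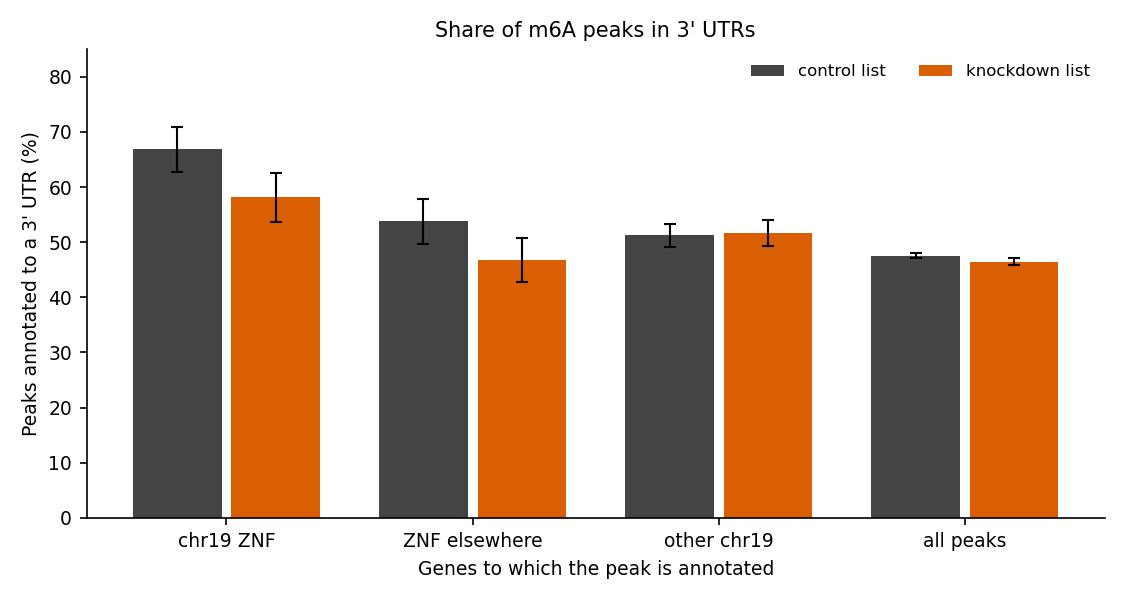
Bars give the percent of m6A peaks annotated to a 3' UTR in the control and knockdown lists for chromosome 19 ZNF genes, ZNF genes elsewhere, other chromosome 19 genes and all peaks; error bars are exact 95% binomial intervals for counting error. Members had 66.9% and 58.2%, above 47.6% and 46.5% of all peaks.

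Member peaks of the control list often corresponded to several shorter peaks of the knockdown list. The median exonic length of a member peak was 479 bases in the control list and 300 in the knockdown list, against 330 and 271 over all peaks. Peaks on ZNF genes of other chromosomes were longer still, at 541 and 387 bases. Of 537 control peaks, 325 (60.5%) overlapped a knockdown peak by at least 1 base, and of 483 knockdown peaks, 456 (94.4%) overlapped a control peak. Over all peaks these shares were 57.9% and 88.8%, and on ZNF genes of other chromosomes they were 70.1% and 95.1%. Of the 325 overlapping control peaks, 138 (42.5%) met 2 or more knockdown peaks, against 21.7% of all overlapping control peaks. With at least 50% of both peaks required to overlap, the shares were 31.8% and 35.6% for members and 39.3% and 53.8% for all peaks. ZNF317 shows the pattern: its long 3' UTR peak in the control list (chr19:9160766-9163424, 16.6-fold) lay over 4 knockdown peaks of 4.05- to 15.5-fold.

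Overlapping control peaks of members had a median enrichment of 11.8-fold, and the 212 that overlapped none had 5.17-fold. Peaks annotated to ZNF561 give an example. The control peak at chr19:9609971-9614148 (16.2-fold) had a knockdown counterpart of 15.8-fold. The other 6 control peaks annotated to ZNF561, between 2.2- and 7.64-fold, had none. Of these 7 control peaks, 3 had been called on the model of ZNF561 and the rest on that of ZNF562. The example is thus not a contrast within 1 gene. ZNF93, known for repressing LINE-1 elements, had 6 control peaks, 4 of them called on its own model, and 1 knockdown peak. That knockdown peak, called on another gene's model, overlapped peaks of another gene's name and none of those 6. Over all members, 93 had more control peaks, 67 had more knockdown peaks and 39 had equal numbers. The 29 members found only in the control list had 40 peaks, of which 6 overlapped a knockdown peak that carries another gene's name. The 4 found only in the knockdown list, ZNF358, ZNF234, ZNF835 and ZNF837, had 1 peak each and all 4 peaks overlapped a control peak of another name. The member peak of highest enrichment in the knockdown list, 70-fold on ZNF837 (chr19:58368655-58380941), faced a control peak of 38.2-fold that the files annotate to ZNF497 although it was called on ZNF837.

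The peaks of highest enrichment in the control list were on ZNF570 (48.1-fold, chr19:37484050-37484499, 3' UTR), ZNF566 (41.2-fold), ZNF497 (38.2-fold), ZNF613 (37.4-fold) and ZNF585B (36.7-fold). In the knockdown list they were on ZNF837, ZNF579 (53.2-fold, chr19:55578329-55579316, exon), ZNF554 (50.4-fold), ZNF865 (48-fold) and ZNF324B (46.3-fold). All 10 overlapped a peak of the other list. ZNF585B has the close copy ZNF585A and ZNF324B the close copy ZNF324, and how reads shared by such copies were placed is not given in the sources used here.

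The authors' deposited table of differential m6A listed 75 rows on 54 members, and most were lower after knockdown. Lower m6A was listed in 46 rows (61.3%) and higher m6A in 29, whereas over all 8687 rows 44.6% were lower and 55.4% were higher. The median member row was -0.49 on the log2 scale of knockdown over control, and that of all rows was 0.28. ZNF genes of other chromosomes had 81 of 132 rows higher, and other genes of chromosome 19 had 449 of 594 rows higher. Counted by gene, 33 members had lower rows only, 17 had higher rows only and 4 (ZNF224, ZNF446, ZNF544 and ZNF749) had both. Every row had a deposited p of at most 0.049, and 62 of the 75 had an adjusted p of at most 0.05, of which 37 were lower. Among the 21 rows with a change of at least 1 on the log2 scale the split turned, with 11 higher and 10 lower. Only rows past the authors' threshold are listed, with no values per library. Of 22 member rows with exactly 1 peak in each list, 20 had the direction of the ratio of the 2 enrichments once the deposited sign was turned to knockdown over control. That turn was itself read in part from such enrichments over all genes, so this match is not separate evidence for the directions.

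**Figure D2:**
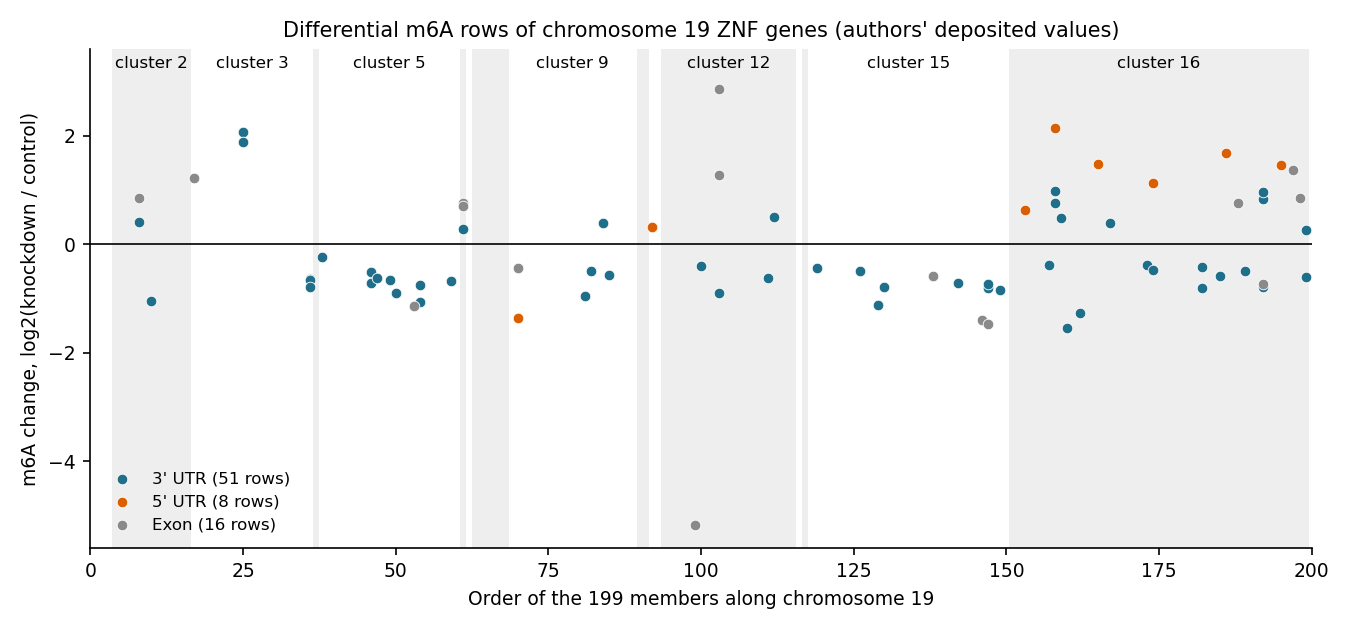
Each point is a differential m6A row of a member, placed by the member's order along chromosome 19 (horizontal axis) and by its deposited change, log2 of knockdown over control (vertical axis); colour gives the position in the transcript and shading separates neighbouring clusters. All rows of clusters 5 and 15 lie below 0, and 7 of 8 rows in 5' UTRs lie above it.

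The direction differed by position in the transcript. In 3' UTRs 38 of 51 rows were lower, or 74.5%, where 46.6% of all 3' UTR rows were lower. In exons 7 of 16 rows were lower, against a background of 45.8%. In 5' UTRs 1 of 8 rows was lower, where 34.5% of all 5' UTR rows were lower. For ZNF genes of other chromosomes 30 of 79 rows in 3' UTRs were lower (38%), and for other chromosome 19 genes 80 of 334 (24%).

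The 5' UTR rows with more m6A after knockdown were those of ZNF787 (2.15, chr19:56103159-56103368), ZNF552 (1.68, chr19:57814704-57814883), ZNF71 (1.48), ZNF584 (1.46, chr19:58408729-58409087), ZNF749 (1.13), ZNF524 (0.63) and ZNF574 (0.32). The rows of ZNF787, the largest, and ZNF749 overlapped no peak of either list. The 5' UTR row that was lower was that of ZNF566 (-1.36), with an adjusted p of 0.0589 in the authors' deposited table. That of ZNF552 had an adjusted p of 0.0891, and the other 6 were at or under 0.0447.

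The direction also differed by expression level. Among members under 1 FPKM, 21 of 28 rows were lower (background 55.8%), and among those of 1 to 2 FPKM 17 of 23 (background 52.7%). From 2 to 5 FPKM 7 of 17 rows were lower (background 43.8%), and over 5 FPKM 1 of 7 (background 35.1%). The same order holds over all rows, and members were low: their median level was 1.16 FPKM, against 3.03 FPKM over all genes with values. The depth behind these values is unknown, because the files give no counts.

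**Figure D3:**
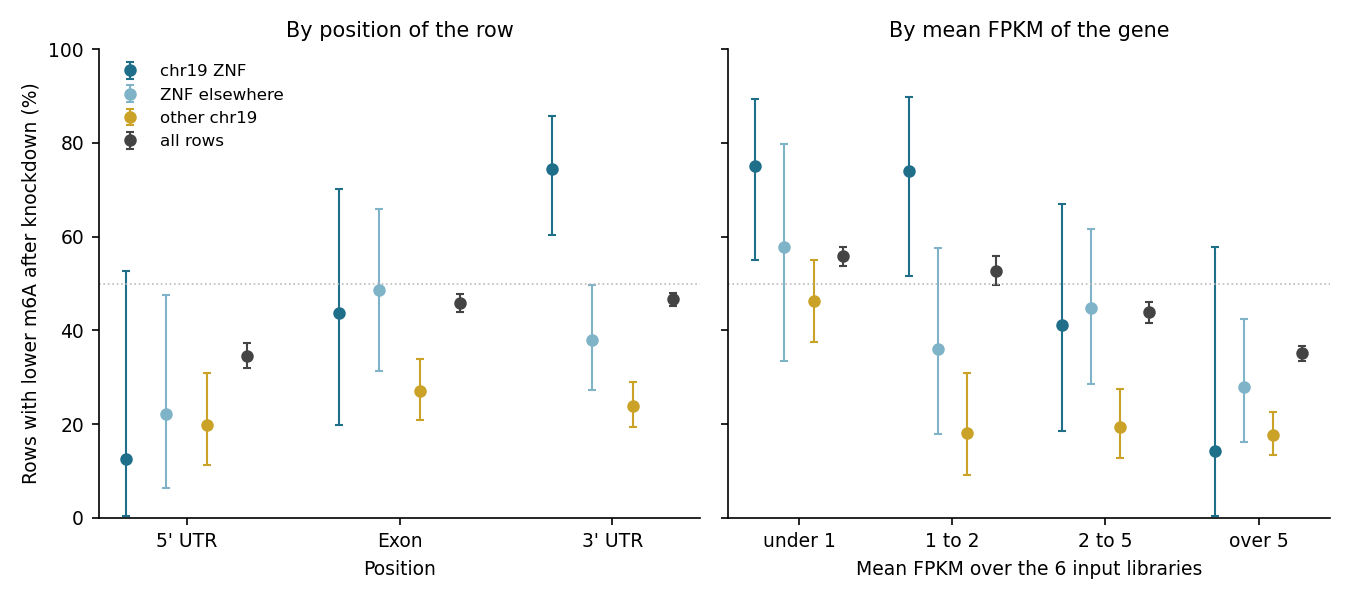
Points give the percent of differential rows with lower m6A after knockdown by transcript position (left) and by mean FPKM of the gene (right), for members, ZNF genes elsewhere, other chromosome 19 genes and all rows, with exact 95% binomial intervals that cover counting error only. Members reach 74.5% in 3' UTRs against 46.6% of all rows, and go from 75% under 1 FPKM to 14.3% over 5 FPKM.

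Along the chromosome, members were joined into 16 clusters wherever the gap to the next was under 1 Mb, numbered in order of position. In cluster 5 (chr19:19679859-24107352, 23 members) all 10 rows were lower, from -1.14 to -0.23. In cluster 15 (chr19:51571283-53576859, 33 members) all 11 rows were lower, from -1.47 to -0.44. Cluster 16 at the end of the long arm (chr19:55481197-58481230, 49 members) had 16 higher and 12 lower rows, from -1.54 to 2.15. Clusters 5 and 15 had no row in a 5' UTR, and cluster 16 held 6 of the 8 such rows. The median level of members with FPKM was 0.709 in cluster 5, 0.821 in cluster 15 and 1.65 in cluster 16. In cluster 5 the control list had 72 peaks and the knockdown list 47, and in cluster 15 they had 100 and 92.

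By the row of smallest p for each gene, the lowest values were on ZNF155 (-5.18, chr19:43966933-43967142), ZNF582 (-1.54), ZNF665 (-1.39), ZNF667 (-1.26), ZNF849P (-1.14), ZNF480 (-1.11), ZNF730 (-1.07) and ZNF559 (-1.05, chr19:9339306-9341417). The row of ZNF155 overlapped a list peak that had been called on ZNF221, a close relative next to it, so it may not describe ZNF155. That of ZNF849P, a pseudogene by its symbol, overlapped a peak called on ZNF492, and that of ZNF480 a peak called on ZNF766. In the authors' deposited table the rows of ZNF582 and ZNF480 had adjusted p of 0.0617 and 0.0575. The highest values were on ZNF763 (2.08), ZNF552 (1.68), ZNF71 (1.48), ZNF584 (1.46), ZNF324B (1.37, chr19:58455293-58455891), ZNF224 (1.28), ZNF653 (1.22, chr19:11487061-11487686) and ZNF787 (0.98, chr19:56087606-56088385). The 2 rows of ZNF763 overlap each other and rest on a gene at a mean of 0.0974 FPKM.

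ZNF536, which lacks a KRAB domain and is known from neuronal differentiation, had the row of smallest p among members (5.01e-35), an exonic row at chr19:30444611-30445690 with a change of 0.70. Its other 2 rows were 0.75 and 0.28, so all 3 were higher. ZNF787 likewise had 3 higher rows, 2 in its 3' UTR (0.98 and 0.76) and 1 in its 5' UTR (2.15). ZNF791 had 3 lower 3' UTR rows, from -0.79 to -0.64, and ZNF525 had 3 lower rows, from -1.47 to -0.72, of which 2 overlapped peaks called on ZNF845. Where rows overlapped a list peak called on another gene, 14 of 15 were lower. Where it was called on the member itself, 32 of 57 (56.1%) were lower. The 3 rows that overlapped no list peak, on ZNF787, ZNF749 and ZNF224, were all higher. A split by KEGG labels in the files, a pathway and an orthology entry taken as stand-ins for a KRAB domain, was made after these values were seen. Members without such a label may still encode a KRAB domain, so it does not separate KRAB genes from others. Lower rows were 34 of 51 for labelled members and 12 of 24 for the others, with 29 of 37 and 9 of 14 in 3' UTRs.

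Expression was listed for the 54 members with a differential row, and no value was listed for the other 145. Of the 54, 33 had a mean of at least 1 FPKM and entered the test, limma on log2(FPKM + 1) over 4515 genes with Benjamini-Hochberg adjustment. It called 5 members higher (15.2%) and 9 lower (27.3%) after knockdown, where 24.5% of all tested genes were higher and 37.9% lower. The median change was -0.08 for members and -0.07 for all tested genes. Scaling decided the direction of this count: with quantile normalization 12 members were higher and 1 lower, and with median-centring 11 were higher and 2 lower. Over all tested genes the split went from 1107 higher and 1712 lower to 1425 and 1291 with quantile normalization, and to 1507 and 1213 with median-centring. The 5 members with the highest levels were ZNF317 (12.9 FPKM), ZNF581 (6.91), ZNF536 (6.49), ZNF574 (5.49) and ZNF875 (4.32). ZNF581 was at 6.97, 6.9 and 8.48 FPKM in the control inputs, and at 6.7, 5.81 and 6.61 after knockdown, without overlap but not past the test (limma adjusted p 0.0713). ZNF574 and ZNF875 overlapped between the groups. In bulk RNA, fewer cells expressing a gene and less RNA per cell cannot be told apart.

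The 5 members that rose were ZNF317, ZNF787, ZNF584, ZNF653 and ZNF444. ZNF317, a KRAB gene, was at 11.6, 11.5 and 12 FPKM in the control inputs, and at 13.9, 13.9 and 14.7 after knockdown. All 3 knockdown values were above all 3 control values, and it rose 1.21-fold (log2 change 0.25, SE 0.041, adjusted p 0.00105 by limma with Benjamini-Hochberg). ZNF653, whose product is known as a transcriptional repressor, was at 0.927, 1.36 and 1.31 FPKM in the control inputs, and at 1.67, 1.65 and 1.64 after knockdown. Its control 1 value was low, the groups did not overlap, and the log2 change was 0.28 (SE 0.082, adjusted p 0.0193 by limma).

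ZNF787 was at 3.68, 3.6 and 4.18 FPKM in the control inputs, and at 4.41, 4.56 and 4.92 after knockdown, a log2 change of 0.22 (adjusted p 0.0136 by limma). ZNF584 was at 3.7, 3.32 and 4.15 FPKM in the control inputs, and at 4.56, 5.3 and 4.16 after knockdown. Its groups nearly met, with an adjusted p of 0.0319 by limma. ZNF444, which carries a SCAN domain, was at 1.96 ± 0.0706 FPKM in the controls and 2.34 ± 0.0994 after knockdown (SD, n = 3 each, limma adjusted p 0.0181). The 5 rises were also called under both scalings, but that of ZNF584 was not called with no filter (limma adjusted p 0.0671) or with the replicate number as a block (0.0618). All 5 genes had higher m6A rows only, with the largest change in a 5' UTR or exon in 4 of them, and ZNF444 had a single 3' UTR row of 0.49.

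The 9 members that fell under the deposited scale were ZNF559, ZNF586, ZNF536, ZNF527, ZNF431, ZNF841, ZNF420, ZNF71 and ZNF211, by 1.23- to 1.51-fold. ZNF559 was at 2.01, 1.93 and 1.66 FPKM in the control inputs, and at 1.06, 1.49 and 1.15 after knockdown. The groups did not overlap, and the log2 change was -0.36 (SE 0.085, limma adjusted p 0.00667). ZNF586 was at 1.42, 1.43 and 1.15 FPKM in the control inputs, and at 0.973, 0.942 and 0.893 after knockdown, and ZNF536 was at 7.68, 6.43 and 7.34 FPKM in the control inputs, and at 6.15, 5.47 and 5.86 after knockdown. Their limma adjusted p-values were 0.00887 and 0.0119. Quantile normalization left ZNF536 as the single fall, and median-centring left ZNF559 and ZNF586.

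ZNF420, a KRAB protein also known as Apak and described as an inhibitor of p53, was at 2.1, 2.04 and 1.96 FPKM in the control inputs, and at 1.57, 1.85 and 1.39 after knockdown. The groups did not overlap (log2 change -0.22, limma adjusted p 0.0266), but the call was lost under both scalings, with changes of -0.04 and -0.13. ZNF431 was at 1.31, 1.5 and 1.14 FPKM in the control inputs, and at 1.01, 0.97 and 0.962 after knockdown, and ZNF527 at 1.37, 1.3 and 1.18 FPKM and at 0.992, 0.912 and 0.882. ZNF841, ZNF71 and ZNF211 had log2 changes of -0.22, -0.21 and -0.19, with limma adjusted p of 0.0402, 0.0144 and 0.0494. Leaving out control 1, control 2, knockdown 1 or knockdown 2 brought the number of rises to 3, 3, 2 and 3, and leaving out control 1, control 2, knockdown 1 or knockdown 3 brought the number of falls to 5, 5, 6 and 5. ZNF317, ZNF559, ZNF586, ZNF536 and ZNF527 were called in each of the 6 fits that left out 1 library.

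**Figure D4:**
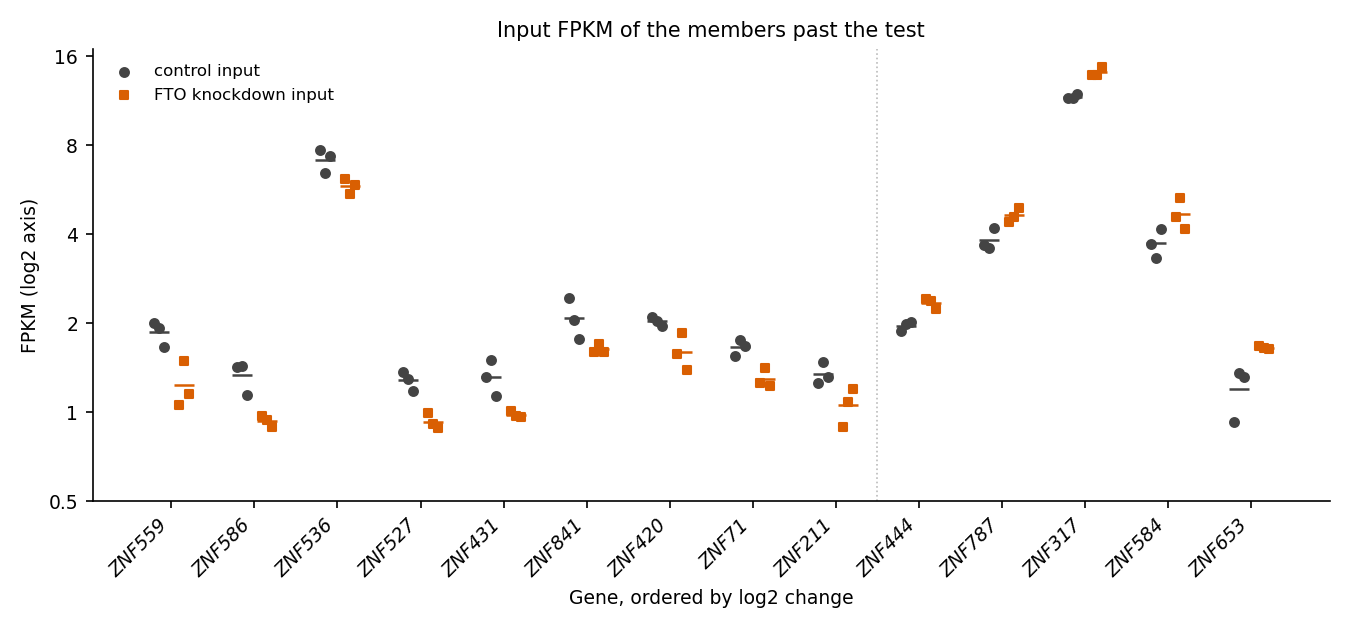
Input FPKM (log2 axis) of the 14 members past the test, with 3 control values (circles) and 3 knockdown values (squares) per gene and their means as lines; genes are ordered by log2 change, with 9 falls left of the dotted line and 5 rises right of it. The groups of each gene do not overlap.

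Below the filter of 1 FPKM only the separation of the groups was counted. Of 21 members there, 12 had all 3 knockdown values under all 3 control values and 0 had them all above. Over the 1829 genes under 1 FPKM, 27.4% were apart in the lower direction and 5.69% in the higher one. The levels of these groups were unlike, with a median of 0.527 FPKM for the 21 members and 0.208 FPKM for the 1829 genes. From 1 to 2 FPKM the order was reversed: 42.1% of 19 members were apart lower, against 52.3% of 746 genes. Over all 54 members 22 were apart lower and 8 higher, against 36.7% and 21.1% of all genes with values. These counts are on the deposited scale, and the other scalings were not run below the filter. With no filter, limma called 17 of 54 members lower (31.5%) and 4 higher (7.41%), against 31.5% and 17.5% of all 6344 genes, so the share called lower was that of the background.

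In cluster 5, 7 of the 8 members with FPKM had all knockdown values below all control values. Over all genes with values the share was 36.7%, with 27.4% under 1 FPKM and 52.3% from 1 to 2 FPKM. This cluster was picked after its values were seen, and its levels are on the deposited scale. ZNF849P was at 0.853, 0.803 and 0.596 FPKM in the control inputs, and at 0.143, 0.155 and 0.154 after knockdown, 4.99-fold lower. ZNF681 was at 0.455, 0.579 and 0.439 FPKM in the control inputs, and at 0.137, 0.289 and 0.231 after knockdown. ZNF66 was at 0.999, 1.03 and 0.877 FPKM in the control inputs, and at 0.519, 0.497 and 0.589 after knockdown. The others were ZNF737, ZNF493, ZNF730 and ZNF431, at 1.95-, 1.69-, 1.57- and 1.34-fold lower means. ZNF101, at the edge of the cluster, was the exception, with 2.08 ± 0.0827 FPKM in the controls and 2.19 ± 0.094 after knockdown (SD, n = 3 each). Genes of this cluster are close relatives, so the placement of shared reads bears on each value, and its effect was not tested.

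Across the 54 members, the direction of the m6A row of smallest p and that of the mean input level matched in 42 (77.8%), against 55.1% of all 6344 genes and 59.4% of 96 ZNF genes of other chromosomes. Both were lower in 32 genes and both higher in 10, while 8 had higher m6A with a lower level and 4 the opposite. Of the 75 rows, 15 on 13 members overlapped a list peak called on another gene, and 14 of these were lower. For ZNF155, ZNF849P, ZNF480 and ZNF610, among others, such a row was the one used here. Their m6A and level may thus describe different genes, and the effect on the match was not tested. Lower values prevailed on both axes, with 36 members lower in m6A and 40 in level on the deposited scale. Signs under other scalings were followed gene by gene only for the named members. Among those the level turned for ZNF211, ZNF585B and ZNF875 with quantile normalization, and for ZNF585B and ZNF875 with median-centring. The median change of the 33 tested members went from -0.0761 to 0.0696 and 0.0166, so further members turned. The match was not recounted under these scalings. The correlation of the changes across these genes was 0.53 (Spearman) and 0.52 (Pearson), a description over genes that share the input libraries on both axes. Over all 6344 genes the Spearman value was 0.15. The rank correlation of the m6A change with the mean level was 0.42. ZNF71 and ZNF536 stood against the trend, with higher m6A rows (1.48 and 0.70) and falls in FPKM.

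**Figure D5:**
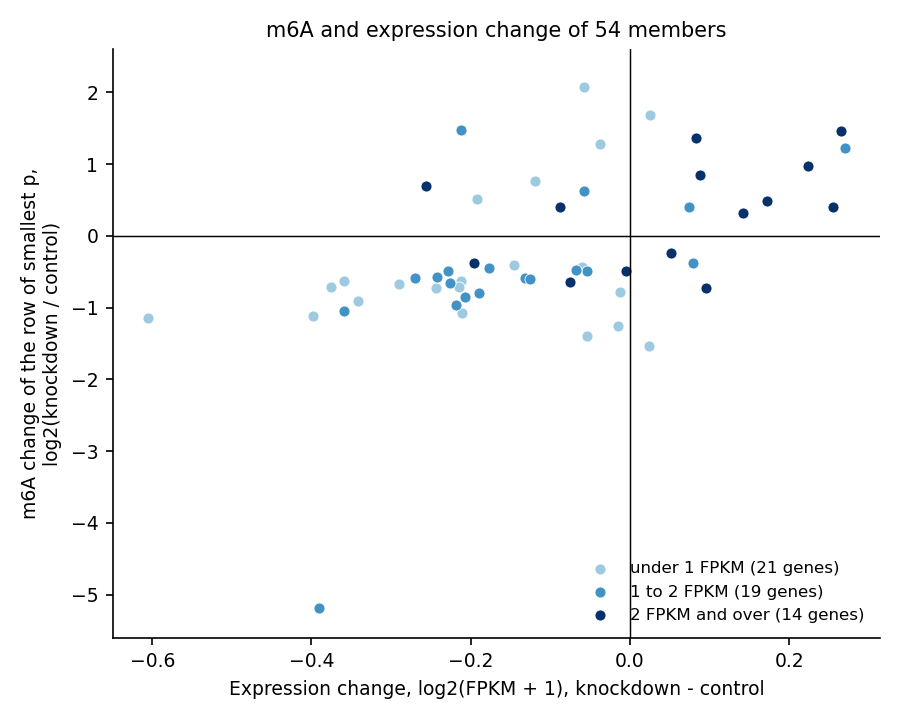
Each point is a member with FPKM, with its expression change on the log2(FPKM + 1) scale on the horizontal axis and the deposited m6A change of its row of smallest p (log2 of knockdown over control) on the vertical axis; colour gives the mean FPKM. Of 54 genes, 32 lie in the lower left and 10 in the upper right quadrant.

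Of 33 listed co-factors of KRAB proteins, 14 had no FPKM values and 19 were tested. Limma called 12 of them higher, 4 lower and 3 neither, with a median change of 0.18, where 24.5% of all tested genes were higher and 37.9% lower. Quantile normalization gave 13 higher and 3 lower, and median-centring 14 higher and 1 lower. TRIM28, the co-repressor bound by the KRAB domain, was at 75.4, 74.9 and 81.5 FPKM in the control inputs, and at 101, 95 and 101 after knockdown. The groups did not overlap, and it rose by 0.35 on the log2 scale (SE 0.0482, limma adjusted p 0.0005). SETDB1, which methylates histone H3 at lysine 9, rose by 0.18, the heterochromatin protein CBX5 by 0.33, the deacetylase HDAC1 by 0.44 and the DNA methylation factor UHRF1 by 0.65. DNMT1, which maintains DNA methylation, rose by 0.27, and the NuRD remodelling subunits CHD3, GATAD2A, GATAD2B, RBBP4 and RBBP7 by 0.32, 0.30, 0.27, 0.47 and 0.15, while CHD4, another remodeller of that complex, did not pass the test (0.07, limma adjusted p 0.171). MORC2, a partner of the HUSH silencing complex, rose by 0.14, and the HUSH members MPHOSPH8 (-0.05) and PPHLN1 (0.07) did not pass. ATF7IP, a partner of SETDB1, fell by 0.21, and HDAC2, TRIM24 and SUMO2 fell by 0.37, 0.20 and 0.18. The fall of TRIM24 was not called with quantile normalization, and with median-centring the fall of HDAC2 was the single one called. In the authors' deposited table the co-factors had 19 higher and 12 lower m6A rows, where 55.4% of all rows were higher, and the row of TRIM28 (5' UTR, adjusted p 0.0631) was -1.69. A list of 18 further chromosome 19 genes was drawn by symbols of other zinc finger families. Its rule also admitted vomeronasal receptors and antisense RNAs such as ZNF667-AS1, so not all are zinc finger genes. Of these 18 genes, 4 had FPKM and 2 entered the test: MZF1 rose (log2 change 0.28) and ZSCAN18 fell (-0.27), a fall not called with quantile normalization. Of their 9 m6A rows 7 were higher, which is few rows to set against the 55.4% of all rows.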

How the data were processed

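The members, gene lists and tests were chosen with earlier results of these data known. Samples were grouped by their titles. Bowtie 0.12.2, HISAT2 2.0, StringTie 1.3.0 and the build mm8, a mouse build, are named per the submitters' processing notes, and the peak caller is not given in the sources used here. Positions were read as GRCh38, since 98.3% of 300 member transcripts overlapped the RefSeq GRCh38.p14 span of their symbol, and 1 was added to starts counted from 0.

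Per the file headers, FPKM per input library came from the authors for genes with a differential row. Per the file headers, the authors deposited log2 changes of m6A with p-values and, as scores, log10 adjusted p-values, here turned from control over knockdown to knockdown over control. Over 3748 rows with 1 peak in each list, the deposited change had a rho of -0.86 with knockdown over control enrichment. Per the file headers, each of the 2 peak lists (39492 control and 28891 knockdown peaks, 1 list per condition) gave a fold enrichment, a ratio of IP to input, and scores of log10 p. Of 8970 rows, 283 without a gene name had p above 1 and were dropped. FPKM were tested with limma 3.58.1 in R 4.3.3 (log2(FPKM + 1), mean of at least 1 FPKM, trend, no block, two-sided, Benjamini-Hochberg over all genes, threshold 0.05). On simulated data this test recovered 25.4% of log2 changes of 0.2 and 91% of those of 0.5. A member that was not called may thus still have a small change. Of the 6396 listed genes, counts of groups that do not overlap used the 6344 with a value above 0. Depth is unknown, so precision rests on 3 libraries per group. Peaks were compared with bedtools 2.31.1 on exonic blocks, leaving out pairs on known opposite strands. Named members were up to 10 rises and 10 falls among called members with groups apart, the 5 highest in FPKM, the 8 largest m6A changes each way (row of smallest p per gene) and the 5 highest peaks of each list; others are named as examples chosen after their values were seen. Sequences are RefSeq GRCh38.p14. Alternatives covered pseudocount, filter, scaling, trend, block, each library left out, stricter peak and row thresholds and the overlap rule.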

Additional observations from a re-analysis of the deposited data

How the results depend on the processing

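Expression counts were the results most sensitive to processing. The 5 rises and 9 falls became 12 and 1 with quantile normalization and 11 and 2 with median-centring, and the median change of members went from -0.0761 to 0.0696 and 0.0166. With no filter 17 members were lower (median -0.1199), with a filter of 0.5 FPKM the median was -0.1241 and with a pseudocount of 0.1 FPKM -0.0998. With that pseudocount and no filter, chosen after seeing the data, 17 were lower and the median was -0.2352. Leaving out 1 library gave 2 to 6 rises, 5 to 11 falls and medians of -0.1103 to -0.0533. Among the named members, the only ones followed gene by gene, some changed sign under scaling. They were ZNF211 (0.0004), ZNF585B (0.1367) and ZNF875 (0.0142) with quantile normalization, and ZNF585B (0.0386) and ZNF875 (0.0029) with median-centring. Same-numbered control and knockdown libraries did not deviate together (r of -0.077, 0.028 and 0.025), and a fit with the replicate block gave 4 rises and 11 falls with a median of -0.0761. For m6A, 1 row per gene left 18 higher rows, and a change of at least 1 left 11 higher and 10 lower. Requiring 50% reciprocal overlap, a 4-fold enrichment or an adjusted p of 1e-05 moved the shared part of member control peaks to 31.84%, 68.12% and 80.83%, and that of knockdown peaks to 35.61%, 96.62% and 98.81%. The 3' UTR share of control peaks was 73.06% at an adjusted p of 1e-05, 71.79% with 1 peak per gene and 72.23% with members taken by the gene model the peak was called on, a choice added after seeing the data. Of these, the no-filter, left-out-library, 1-row and stricter settings use more or fewer features by construction, and for the others the cause was not tested. Depth is unknown, so low members are limited by read numbers that the files do not show.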
